A study of Mus musculus with 143 samples.

Results

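Oxidative phosphorylation (OXPHOS) runs in the inner mitochondrial membrane: complexes I to IV pass electrons from NADH and succinate to oxygen, and ATP synthase uses the proton gradient that this builds. Most subunits are encoded in the nucleus and join a small set encoded by mitochondrial DNA, with dedicated assembly factors inserting haem, copper and iron-sulphur clusters. A growing mouse oocyte stocks mRNAs of such housekeeping machines, stops most transcription when it is fully grown, and removes many stored mRNAs when it matures from the germinal vesicle (GV) stage to the metaphase II (MII) egg. The RNA exosome degrades RNA from the 3′ end, with DIS3 and EXOSC10 as its ribonuclease subunits.

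The genes described here were the nuclear-encoded OXPHOS genes, chosen by symbol: protein-coding genes starting with Ndufa, Ndufb, Ndufc, Ndufs, Ndufv or Ndufaf (complex I), Sdha to Sdhd (complex II), Uqcr (complex III), Cox followed by a digit (complex IV) or Atp5 (ATP synthase). RefSeq held 105 protein-coding genes of this kind, and 104 had a gene ID among the 55573 of the poly(A) count files and the 55487 of the RiboMinus count files. The 104 members comprised 33 accessory and 7 core subunits of complex I with 8 complex I assembly factors, 4 complex II genes, 8 complex III genes, 18 complex IV subunits with 9 complex IV assembly factors, and 17 ATP synthase genes. Of these, 99 passed the filter on low counts in the poly(A) libraries, 96 in the adult and 98 in the day 20 RiboMinus libraries. Roles were set by symbol, so Ndufa4, which is found in complex IV, and Ndufa4l2 count as complex I accessory subunits. Of the 105 genes 37 overlap another RefSeq gene, and the strand setting of the counting is not given in the sources used here. Reads of those loci cannot be assigned with certainty.

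Each RNA library came from 1 mouse oocyte. The poly(A) libraries, made by oligo-dT capture, covered control and Dis3 conditional knockout (cKO) oocytes at GV (8 control, 15 cKO), after 3 h of culture (GV3h; 8 and 16) and at MII (8 and 16); GV and 3 h oocytes were from ovaries and MII eggs from oviducts of superovulated mice. The RiboMinus libraries, primed with random hexamers after removal of ribosomal RNA, covered adult GV oocytes (8 control, 8 Dis3 cKO) and p20 oocytes, collected on postnatal day 20 (8 each of control, Dis3 cKO, Exosc10 cKO and dcKO, the double knockout of both genes). CUT&Tag peak lists on pooled oocytes, with 3 per group, marked RNA polymerase II (Pol II) in adult control, adult Dis3 cKO and p20 control oocytes, and H3K27me3, the Polycomb mark, in those groups and in p20 dcKO oocytes. The mutant mice were made with CRISPR/Cas9; the Cre driver, the exact alleles of the controls and the number of animals are not given in the sources used here, so p-values measure the spread between oocytes.

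The poly(A) libraries held 4843964 to 15412200 gene counts each and the RiboMinus libraries 8492102 to 35429028. Dis3 was low in the libraries labelled as Dis3 cKO: its mean level fell from 13.1 to 2.88 CPM (counts scaled to 1000000 per library, with TMM library sizes) at GV, from 9.69 to 0.759 at MII and from 15.8 to 1.79 in adult RiboMinus oocytes. Exosc10 had a mean of 117 CPM in p20 controls, 3.13 in Exosc10 cKO and 7.25 in dcKO oocytes. All 12 oocyte markers looked for were detected in every group, with sums of 8669 to 29650 CPM, against 21.6 to 214.8 CPM for 13 granulosa and cumulus markers and at most 7.42 CPM for 5 blood and immune markers. Among the MII Dis3 cKO eggs, 3 stood apart: numbers 7 and 11 held the largest share of other maternal mRNAs that controls lose, and number 15 had the lowest ratio of gene counts to the added ERCC spike-in RNA (14.4). Results for MII are therefore also given without them.

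The promoters were described first, since the chromatin data bear on them. RefSeq windows of 300 bases, from 250 before to 50 after a transcription start on GRCm38.p6, matched 84 of the 104 members. Each window was searched on both strands for the core letters bound by 3 factors known to act at OXPHOS promoters: GCGCANGCG for NRF1, CCGGAAGT for GABPA and other ETS factors, and AAGATGGCG for YY1; the letters of these 3 cores do not contain one another. The NRF1 letters were in 25.6% of 90 member windows against 8.58% of 21263 protein-coding windows, the ETS letters in 10.0% against 5.15%, and the YY1 letters in 10.0% against 1.83%. At least 1 of the 3 was in 41.1% of member windows and 14.3% of all windows, and the median GC content was 59.0% against 56.3%. A match describes letters in a window, not binding.

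The windows below are those of 5 members on which the results turn, printed 5′ to 3′ on the strand of the gene, with matched letters in capitals. Ndufa11, an accessory subunit of complex I, is shown because its start had a Pol II peak in 8 of 9 lists. Uqcrc1, a core protein of complex III, and Cox10, which makes the haem precursor for cytochrome c oxidase, are shown because they changed in opposite directions in the double knockout. Ndufb5, a membrane-arm subunit of complex I, was lower in every single-knockout comparison before MII. Cox7b2, the testis-type isoform of subunit 7b, carried H3K27me3 in the p20 control lists alone. The Ndufa11 window holds 2 NRF1 matches, that of Uqcrc1 holds 3, that of Cox10 holds 1 ETS and 1 YY1 match, and those of Ndufb5 and Cox7b2 hold none of the searched letters.
Ndufa11, chr17:56717512-56717811, plus strand: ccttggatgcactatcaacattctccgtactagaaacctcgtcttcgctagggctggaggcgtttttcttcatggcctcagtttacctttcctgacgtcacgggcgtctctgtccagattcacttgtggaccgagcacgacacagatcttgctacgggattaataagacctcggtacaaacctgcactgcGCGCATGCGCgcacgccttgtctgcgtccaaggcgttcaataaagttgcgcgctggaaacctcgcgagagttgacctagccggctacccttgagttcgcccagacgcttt
Uqcrc1, chr9:108936398-108936697, plus strand: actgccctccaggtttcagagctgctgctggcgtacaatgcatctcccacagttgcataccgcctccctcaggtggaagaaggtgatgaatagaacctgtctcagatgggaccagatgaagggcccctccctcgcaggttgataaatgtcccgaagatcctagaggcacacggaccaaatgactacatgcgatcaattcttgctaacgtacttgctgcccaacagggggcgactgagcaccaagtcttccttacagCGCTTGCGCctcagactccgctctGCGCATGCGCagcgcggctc
Cox10, chr11:64079423-64079722, minus strand: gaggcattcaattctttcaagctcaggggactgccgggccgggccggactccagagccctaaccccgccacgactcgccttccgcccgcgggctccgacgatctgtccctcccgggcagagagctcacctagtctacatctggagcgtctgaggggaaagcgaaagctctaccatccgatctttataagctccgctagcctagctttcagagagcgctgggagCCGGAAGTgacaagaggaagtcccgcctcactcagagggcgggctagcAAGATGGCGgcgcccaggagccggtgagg
Ndufb5, chr3:32736813-32737112, plus strand: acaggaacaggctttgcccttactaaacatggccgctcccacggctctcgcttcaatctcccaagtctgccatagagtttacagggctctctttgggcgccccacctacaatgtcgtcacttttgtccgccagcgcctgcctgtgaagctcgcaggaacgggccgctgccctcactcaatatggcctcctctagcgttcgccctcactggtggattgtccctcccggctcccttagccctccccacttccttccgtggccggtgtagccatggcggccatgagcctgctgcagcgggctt
Cox7b2, chr5:71548156-71548455, minus strand: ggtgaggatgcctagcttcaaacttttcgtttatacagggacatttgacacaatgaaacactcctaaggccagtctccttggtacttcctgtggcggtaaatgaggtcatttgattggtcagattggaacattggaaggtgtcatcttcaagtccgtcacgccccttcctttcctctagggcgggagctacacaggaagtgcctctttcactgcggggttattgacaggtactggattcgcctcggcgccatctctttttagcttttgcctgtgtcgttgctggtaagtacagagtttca

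Pol II peaks were found at a small share of member starts and H3K27me3 peaks at almost none. Within 1000 bases of a start, the adult GV control lists held a Pol II peak at 6 to 9 of the 84 members, a mean of 8.73% ± 1.82 (SD, n = 3 lists) beside 4.32% ± 1.43 of all protein-coding genes. The p20 control lists held one at 13 to 15 members, or 16.7% ± 1.19 beside 10.4% ± 1.01 of all genes. The adult Dis3 cKO lists were uneven, with 30311 to 122606 peaks per list, and held Pol II at 5 to 20 members (13.1% ± 9.45, beside 10.4% ± 5.22). These are the authors' peak lists, and a longer list reaches more starts of any gene.

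Ndufa11 had a Pol II peak in all 3 p20 control lists, all 3 adult Dis3 cKO lists and 2 of 3 adult control lists. Cox6b2 (the testis-type isoform of complex IV subunit 6b) and the complex I assembly factors Ndufaf3 and Ndufaf8 had one in all 3 p20 control lists, and the assembly factors also in 2 of 3 adult control lists. H3K27me3 lay at 0 or 1 member start in adult controls (0.397% ± 0.687) and at 1 to 3 in p20 controls (1.98% ± 1.37), while 22.4% ± 6.35 and 25.7% ± 0.402 of all protein-coding genes had the mark there. The member with the mark in all 3 p20 control lists was Cox7b2, which was at 0 CPM in every RiboMinus library. It had the mark in no adult list and in no p20 dcKO list. In the p20 dcKO lists 10 members had an H3K27me3 peak, each in 1 list and none in 2 (3.97% ± 3.00, beside 28.4% ± 2.22 of all genes). With only peaks above the median signal the member share was 1.59% in the dcKO lists and 1.59% in p20 controls, beside 17.5% and 22.0% of all genes.

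**Figure D1:**
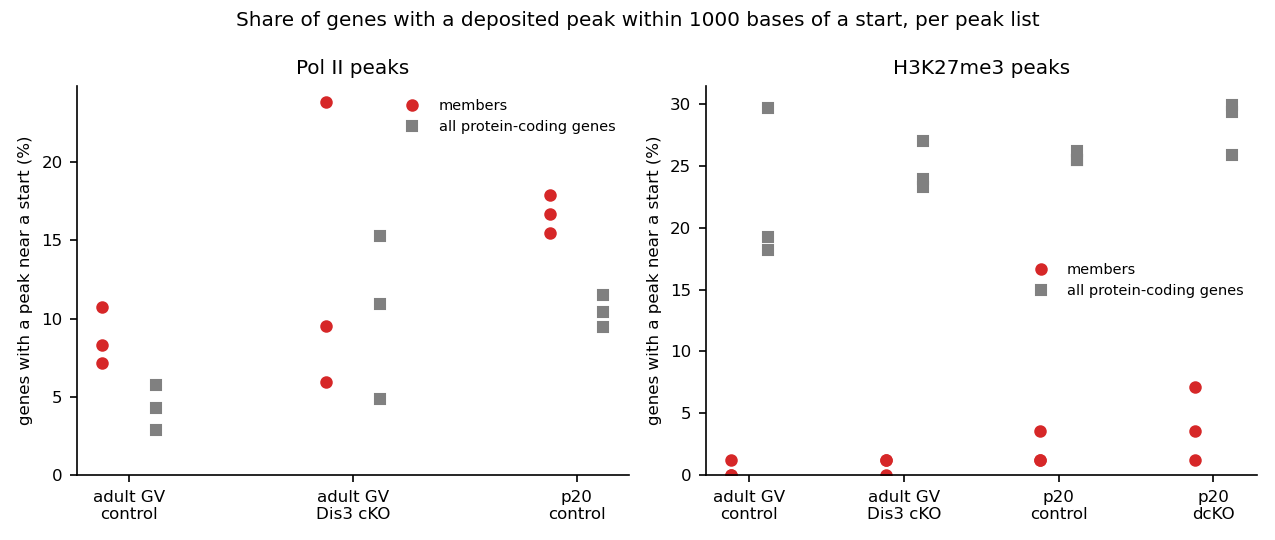
Percent of genes with a deposited peak within 1000 bases of a start, 1 point per peak list, for members and for all protein-coding genes in each CUT&Tag group. Members sit above all genes for Pol II in the control lists (8.73% against 4.32% in adult GV) and far below them for H3K27me3 (0.397% against 22.4%).

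Several subunits are encoded by gene pairs or trios with tissue-restricted forms, and the oocyte used the widely expressed form in most cases. Levels of different genes are compared only roughly here, as CPM with no correction for transcript length. In poly(A) GV controls, Cox4i1, the general form of subunit 4, ranged from 349 to 550 CPM (median 446) and Cox4i2, the lung-type form, from 0.104 to 2.99 CPM. Cox8a lay between 35 and 54.3 CPM, while the muscle form Cox8b was at 0 and the testis form Cox8c at most at 2.27 CPM. The groups of values do not overlap for either pair.

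Subunit 6 differed from that pattern. The muscle form Cox6a2 was detected beside Cox6a1 (9.92 to 17.6 CPM against 102 to 147 CPM in GV controls), and the testis form Cox6b2 beside Cox6b1 (medians 33.4 and 86.5 CPM). At MII the order of the last pair turned: Cox6b2 was at 31.6 to 59.4 CPM and Cox6b1 at 5.12 to 23.1 CPM in the 8 control eggs, without overlap. The muscle form Cox7a1 reached at most 0.756 CPM in GV controls, where Cox7a2 was at 154 to 201 CPM. Of the 3 genes for the c subunit of the ATP synthase ring, Atp5g1 and Atp5g3 were at medians of 16.8 and 15.1 CPM and Atp5g2 at 1.03 CPM.

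At maturation of control oocytes, most OXPHOS mRNAs fell in the poly(A) pool, and their median fall was far larger than that of all genes. Of 99 tested members, 86 were lower and 5 higher in MII than in GV controls, beside 35.8% and 22.7% of all 17389 tested genes (adjusted p under 0.05 in the quasi-likelihood test of edgeR, adjusted by Benjamini-Hochberg). The median log2 fold change was -3.07 for members and -0.27 for all genes. The summed share of members in gene counts was 0.847% ± 0.077 (SD, n = 8) at GV and 0.222% ± 0.014 (n = 8) at MII, with no overlap (0.739 to 0.948% against 0.205 to 0.247%). For 76 members every MII control lay below every GV control, a pattern seen in 17.6% of all genes.

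Among members with a mean of at least 5 CPM in either stage, the 4 largest falls were in subunits of ATP synthase, complex IV and complex I, and genes of every role fell. Atp5o, the stalk subunit that holds the ATP synthase head, ranged from 89.7 to 144 CPM in GV controls (median 116) and from 0.307 to 2.91 CPM in MII controls (median 1.45). The groups were far apart, with a log2 change of -6.18 (SE 0.358, adjusted p = 5.64e-25). Atp5e, of the central stalk, ranged from 225 to 370 CPM at GV (median 296) and from 3.28 to 6.96 CPM at MII (median 4.32), again without overlap; its log2 change was -6.04 (SE 0.530, adjusted p = 2.42e-16). Cox7c, a small complex IV subunit, changed by -5.97 (SE 0.670, adjusted p = 3.41e-12) and Ndufb7, of complex I, by -5.37 (SE 0.545, adjusted p = 8.38e-14). Cox4i1 fell from a median of 446 to 12 CPM.

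By role, the number lower was 31 of 32 complex I accessory subunits, 6 of 7 core subunits, 7 of 8 complex I assembly factors, 3 of 4 complex II genes, 7 of 8 complex III genes, 13 of 15 complex IV subunits, 4 of 8 complex IV assembly factors and 15 of 17 ATP synthase genes. The 5 members with a larger share of the MII pool came from different roles: Ndufa10 (0.89), Cox10 (0.75), the assembly factor Ndufaf2 (0.70), Atp5b, the catalytic beta subunit (0.61), and Sdha, the flavoprotein of complex II (0.55; all log2). For Cox10, GV controls ranged from 259 to 343 CPM and MII controls from 444 to 551 CPM; like it, Ndufa10, Ndufaf2 and Atp5b did not overlap, a gap seen for 10.8% of all genes in this direction. The direction of these 5 rests on the scaling: relative to ERCC spike-in counts 0 members were higher and 99 lower at MII (0.334% and 87.5% of all genes), the median of all genes was -2.12, and Ndufa10, Cox10, Ndufaf2, Atp5b and Sdha were at -0.97, -1.11, -1.14, -1.24 and -1.31, less far down than that median. With oligo-dT capture, a lower amount of an mRNA and a shorter poly(A) tail cannot be told apart.

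After 3 h of culture few members passed in controls in the model of all poly(A) groups: 2 were higher (Atp5b, 0.52, and Sdha, 0.51) and 1 lower (Ndufaf2, -0.47), beside 1.14% and 1.56% of all genes, with a member median of -0.37 against -0.05. This count depends on the fit: with only the GV and GV3h controls in the model 9 members were higher and 45 lower, beside 7.66% and 7.45% of all genes. Without MII cKO egg 15 in the shared model 3 were higher and 2 lower (1.75% and 2.17% of all genes), and without eggs 7, 11 and 15 it was 3 and 9 (1.98% and 2.58%). The granulosa and cumulus markers summed to 56.4 to 214.8 CPM in GV controls (median 102.5) and to 38.5 to 69.7 CPM in GV3h controls (median 53.9), and their part in these counts was not tested.

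**Figure D2:**
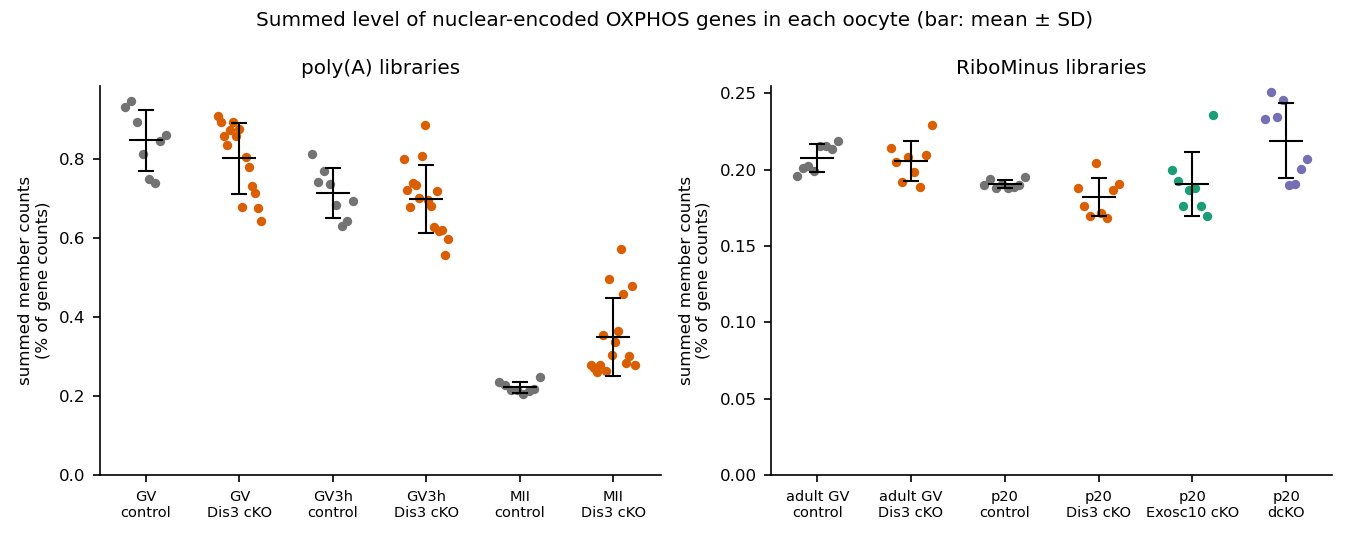
Summed member counts as a percent of gene counts, 1 point per oocyte, bars mean ± SD, for poly(A) and RiboMinus groups on axes that start at 0. The GV controls lie at 0.739 to 0.948%, the MII controls at 0.205 to 0.247% and the MII Dis3 cKO eggs at 0.260 to 0.572%.

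In GV oocytes without Dis3, most OXPHOS mRNAs were close to control levels as shares of gene counts. A few genes of complexes I and IV were lower. Per 1000 ERCC counts members summed to 1162 ± 166 in controls and 850 ± 171 in cKO oocytes. Gene counts per ERCC count were 137 ± 16.2 and 108 ± 30.8. None of 99 members was higher and 6 were lower, beside 13.6% and 8.33% of all genes, with a median log2 change of -0.14 for members and 0.04 for all genes. Ndufb5 ranged from 103 to 183 CPM in 8 controls (median 143) and from 40.4 to 92.6 CPM in 15 cKO oocytes (median 62.3). The groups did not overlap; the log2 change was -1.16 (SE 0.200, adjusted p = 4.76e-06). Cox10 ranged from 259 to 343 CPM in controls (median 290) and from 171 to 249 CPM in cKO oocytes (median 218), also without overlap (-0.47, SE 0.095, adjusted p = 7.31e-05). These 2 were the members without overlap in this direction, found for 1.12% of all genes.

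The other 4 overlapped between groups. They were Cox6a2 (-0.94, SE 0.295, adjusted p = 0.0141), Cox18, which helps insert a mitochondrial subunit into the membrane (-0.57, SE 0.199, adjusted p = 0.0294), Ndufv1, the NADH-binding core subunit of complex I (-0.53, SE 0.158, adjusted p = 0.00885), and Ndufa10 (-0.29). Cox6a2 overlaps Itgad and Cox10 overlaps 2 RefSeq loci, so their reads may be shared. By spike-in scaling 0 members were higher and 11 lower (7.27% and 13.3% of all genes), and with only these 2 groups in the model 1 was higher and 15 lower (14.8% and 12.4%). The summed level of the granulosa and cumulus markers had a median of 102.5 CPM in GV controls and 53.2 CPM in cKO oocytes, with overlapping ranges, and its part in the result was not tested.

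After 3 h of culture 4 members were higher and 6 lower without Dis3, beside 22.9% and 15.7% of all genes (medians -0.11 and 0.07). Members thus passed less often than all genes in both directions, and the higher ones are named singly. Cox11, which delivers copper to complex IV, ranged from 0.370 to 1.87 CPM in controls (median 1.23) and from 1.80 to 19.3 CPM in cKO oocytes (median 5.84), with slight overlap and a log2 change of 2.73 (SE 0.433, adjusted p = 4.97e-07). Uqcrc1 ranged from 0.977 to 8.96 CPM and from 6.19 to 44.5 CPM (1.92, SE 0.510, adjusted p = 0.00173). Cox14, a complex IV assembly factor, ranged from 89.1 to 108 CPM and from 109 to 199 CPM, the member of the higher direction without overlap (0.52, SE 0.185, adjusted p = 0.0202); 5.9% of all genes had such a gap. Ndufaf2 was the fourth (0.41). The granulosa and cumulus markers summed to 38.5 to 69.7 CPM in GV3h controls (median 53.9) and to 21.6 to 55.1 CPM in cKO oocytes (median 33.1), and their part in the result was not tested.

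Ndufb5, Ndufv1, Cox6a2 and Cox10 were lower at GV3h as at GV. For Ndufb5 the control range was 86.4 to 161 CPM and the cKO range 38.0 to 84.7 CPM (-0.99, SE 0.197, adjusted p = 3.71e-05). For Ndufv1 it was 172 to 207 CPM against 89.5 to 139 CPM (-0.67, SE 0.155, adjusted p = 0.000315), and for Cox6a2 it was 8.07 to 12.9 CPM against 0.952 to 6.08 CPM (-1.47, SE 0.290, adjusted p = 3.26e-05). These 3 did not overlap between groups, beside 3.38% of all genes in this direction. Atp5b and Sdha, both -0.36, completed the 6. The Dis3 effect differed between GV3h and GV for 1 member, Uqcrc1 (more positive), beside 1.37% of all genes more positive and 0.667% more negative. This call was lost with a replicate block, where 0 members passed. With spike-in scaling 2 members were higher and 4 lower without Dis3 at GV3h, beside 17.5% and 10.6% of all genes, and Cox14, Ndufaf2, Atp5b and Sdha no longer passed. With only the 2 GV3h groups in the model 11 members were higher and 31 lower, beside 29.7% and 24.9% of all genes, and without MII cKO eggs 7, 11 and 15 in the shared model 6 and 12 (24.5% and 18.1%).

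In MII eggs the picture turned: most OXPHOS mRNAs were higher without Dis3. Of 99 members 62 were higher and 5 lower than in MII controls, beside 27.3% and 14.8% of all genes, and the median log2 change was 0.98 for members and 0.16 for all genes. The summed share was 0.349% ± 0.099 (n = 16) in cKO eggs against 0.222% ± 0.014 (n = 8), and every cKO egg (0.260 to 0.572%) lay above the highest control (0.247%). Scaled to ERCC spike-ins, 74 members were higher and 0 lower, beside 37.6% and 4.31% of all genes (medians 1.34 and 0.52), and the mean was 195.7 member counts per 1000 ERCC counts against 102 in controls. The cKO eggs ranged from 68.8 to 422 on that scale, and the lowest lay below the control range of 91.5 to 124. The 13 granulosa and cumulus markers summed to 76.5 to 153.9 CPM in MII controls and to 22.5 to 67.2 CPM in cKO eggs, without overlap, and 4 of the 13 were at 0 in all cKO eggs. The part of these markers in the member result was not tested.

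Accessory subunits of complex I, counted by symbol and so with Ndufa4, made up the largest block, with 26 of 32 higher and 1 lower. By share, complex III followed with 6 of 8, then complex IV subunits with 10 of 15 and ATP synthase with 11 of 17, none of them lower. Core subunits of complex I (2 higher and 1 lower of 7) and complex IV assembly factors (2 and 3 of 8) moved less, while complex I assembly factors had 3 of 8 and complex II 2 of 4 higher. No test compared the roles with each other.

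Ndufa3, an accessory subunit of complex I, ranged from 0.354 to 1.72 CPM in MII controls (median 0.576) and from 1.87 to 33.1 CPM in cKO eggs (median 5.21). The log2 change was 3.25 (SE 0.381, adjusted p = 9.37e-11). Cox14 ranged from 7.19 to 28.7 CPM (median 14.2) and from 37.2 to 198 CPM (median 87.9), a log2 change of 2.62 (SE 0.211, adjusted p = 7.52e-17). For Atp5mpl, a small membrane subunit of ATP synthase, the control range was 8.80 to 21.9 CPM (median 14.4) and the cKO range 25.7 to 244 CPM (median 54.6), a change of 2.62 (SE 0.275, adjusted p = 2.52e-12). These 3 were the members whose groups did not overlap, a gap seen for 2.02% of all genes in this direction.

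Ndufa7 overlapped, with 0 to 7.49 CPM in controls and 0.527 to 49.7 CPM in cKO eggs (2.63, SE 0.584, adjusted p = 0.000176). Spread within the cKO group was wide for each of these genes. Among the 5 lower members were the copper chaperone Cox19 (-1.23), Cox18 (-0.52), Ndufa10 (-0.34) and Cox10 (-0.26). Under spike-in scaling none of the 5 passed: Cox19 was at -0.83 (adjusted p = 0.0781), Cox18 at -0.22 and Ndufa10 at -0.06, and Cox10 changed sign (0.12).

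The difference from the GV effect was tested directly: 57 members had a more positive Dis3 effect at MII than at GV and 0 a more negative one, beside 9.28% and 3.88% of all genes (median 1.16 for members, 0.07 for all genes). Cox14 (2.49, SE 0.266, adjusted p = 1.56e-10), Ndufa3 (3.13, SE 0.467, adjusted p = 1.31e-06) and Atp5mpl (2.52, SE 0.348, adjusted p = 2.12e-07) were among them. So were 3 of the 6 genes lower at GV, Ndufv1 (0.97, adjusted p = 0.00248), Ndufb5 (1.01, adjusted p = 0.0143) and Cox6a2 (1.36, adjusted p = 0.0302).

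Leaving out eggs 7, 11 and 15 together gave 54 members higher and 7 lower (25.6% and 15.6% of all genes), and a ratio of summed means of 1.40 in place of 1.57. Each of these changes was under 1.5 times. Across the 16 cKO eggs the summed member share and the share of other protein-coding mRNAs that controls lose by more than 2 on the log2 scale moved together (Pearson's r 0.859, Spearman's rho 0.935, and r 0.958 without the 2 farthest eggs), a description with no test, since both are shares of the same libraries. That share of other mRNAs was 1.10 to 1.47% in MII controls and 1.52 to 4.72% in cKO eggs, and its part in the member result was not tested.

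**Figure D3:**
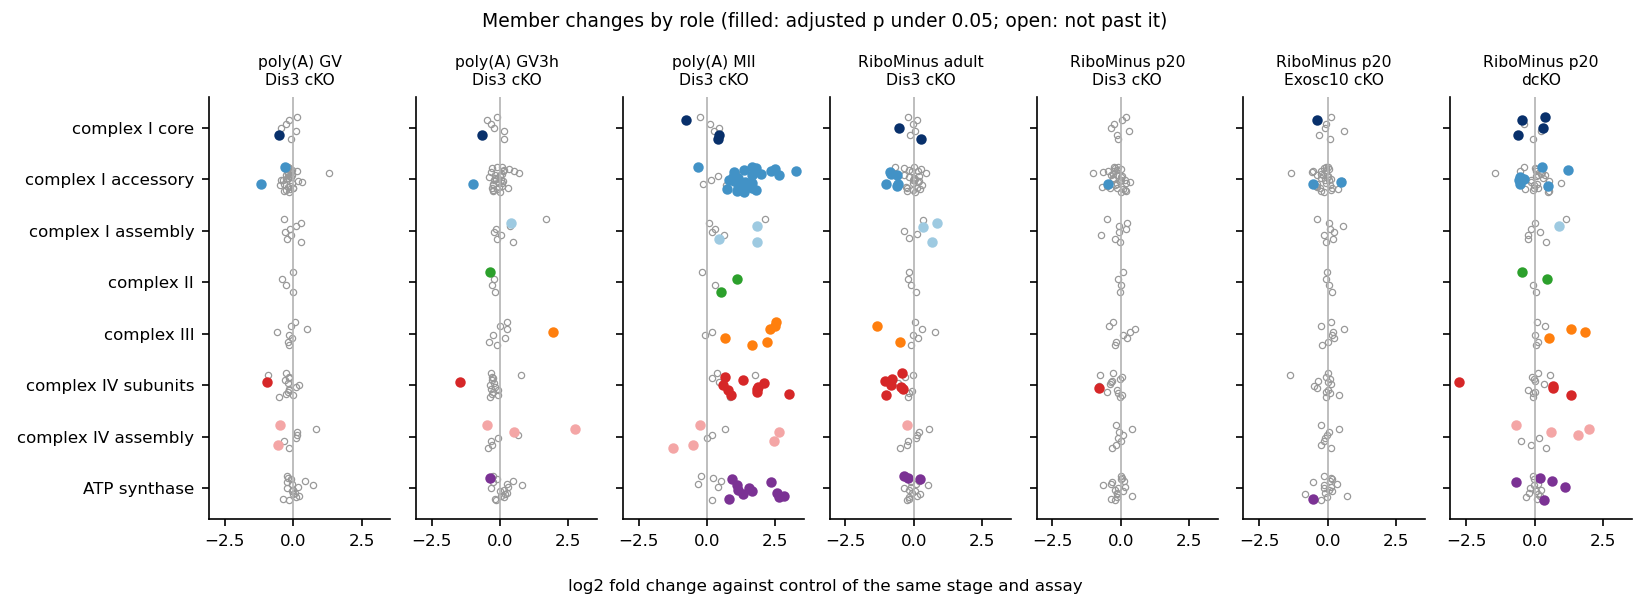
Log2 fold change of each member against the controls of its stage and assay, 1 panel per comparison and 1 row per role, with filled points for adjusted p under 0.05. Most points lie near 0 at GV, and at MII 26 of 32 complex I accessory subunits are filled and to the right.

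The same events can be read as maturation within each genotype, from libraries that the genotypes do not share. In Dis3 cKO oocytes 79 of 99 members were lower and 9 higher at MII than at GV, beside 38.5% and 24.8% of all genes, with medians of -1.69 and -0.26. Of the 86 members lower in controls, 77 were also lower in cKO oocytes, 7 did not pass and 2 were higher. The log2 change was less negative or more positive in cKO oocytes for 88 of all 99 members, whatever its size and whether they fell or rose. Of the 86, 56 had a positive interaction past the threshold. The median of the 86 kept 60.0% of its control log2 fall. The log2 changes of the members in the 2 genotypes had a Pearson's r of 0.852 over 99 genes, which are not independent replicates.

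Atp5o, at 89.7 to 144 CPM in GV controls, changed by -6.18 in control and -5.02 in cKO maturation, and Cox4i1 by -5.14 and -4.52. Atp5e changed by -6.04 and -3.47, and Cox7c by -5.97 and -2.71. The 9 members higher in cKO maturation were Cox8a, Atp5b, Cox10, Ndufab1, Ndufa10, Cox6b2, Ndufaf2, Ndufa4 and Sdha. Under spike-in scaling 0 members were higher and 95 lower, beside 1.31% and 82.3% of all genes. In 37 members every cKO MII egg lay below every cKO GV oocyte, beside 6.37% of all genes.

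Other genes also fell less in cKO oocytes. Of 99 members 71 (71.7%) fell by more than 2 on the log2 scale in controls. In cKO oocytes 94.4% of these had a smaller fall or none, with a median share kept over all 71 of 64.8%. Among other protein-coding genes 16.7% fell that far. Of these 2211 genes 90.8% had a smaller fall or none, with a median share over all of them of 67.7%. The choice of genes by their control fall uses the same control libraries, so these shares are descriptions without a test.

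Members are short genes, and this property moved with the MII result. Of 99 tested members 68 had a locus under 10 kb. Among all protein-coding genes of that class the median log2 change in MII cKO eggs was 0.44, against 0.10 for 10 to 50 kb and -0.14 over 50 kb. The members' medians in the 3 classes were 1.31, 0.42 and 0.03, the last from 4 genes. The part of locus length in the member result was not tested.

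**Figure D4:**
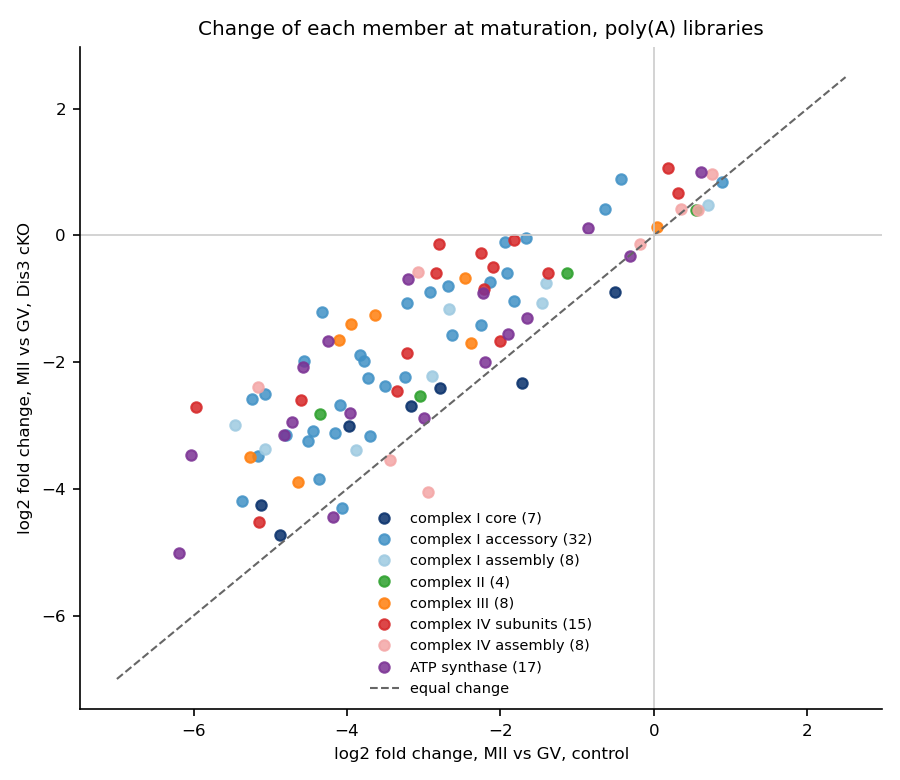
Log2 fold change of each tested member from GV to MII in control oocytes (horizontal) and in Dis3 cKO oocytes (vertical), with a line of equal change. Of 99 members, 88 lie above that line, whether they fell or rose, and 77 were lower in both genotypes.

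In total RNA of adult GV oocytes, where capture does not depend on a poly(A) tail, 5 of 96 members were higher and 19 lower without Dis3, beside 15.7% and 12.4% of all genes, with medians of -0.09 and 0.03. These calls rest on the processing. With spike-in scaling 0 members were higher and 59 lower, beside 4.56% and 40.1% of all genes. With counts summed per tag of the sample titles (2 tags per RiboMinus group) 0 members passed. Complex IV subunits had 7 of 13 lower and 0 higher (median -0.42), complex I accessory subunits 6 of 32 lower, and complex I assembly factors 3 of 7 higher. In 8 members all cKO oocytes lay below all controls, beside 3.53% of all genes.

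Ndufb5 ranged from 22.8 to 39.8 CPM in controls and from 11.7 to 20.4 CPM in cKO oocytes, without overlap (-1.01, SE 0.147, adjusted p = 5.95e-05). Cox6a1, the general form of subunit 6a, ranged from 28.1 to 42.3 CPM and from 13.8 to 23.4 CPM (-0.80, SE 0.121, adjusted p = 8.65e-05). Ndufa4, named for complex I and found in complex IV, ranged from 9.35 to 16.1 CPM and from 4.26 to 9.11 CPM (-0.88, SE 0.170, adjusted p = 0.000824). These 3 showed gaps between the groups, as did Cox6b2, at 15.2 to 22.0 CPM and 6.35 to 14 CPM (-0.83, SE 0.159, adjusted p = 0.000713). Lower levels were also found for Uqcr11 (-1.36), Cox6a2 (-1.05) and Cox7c (-1.02), each under 7 CPM in all libraries of both groups.

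The assembly factors Ndufaf3 (6.55 to 12 CPM in controls, 9.66 to 25.2 CPM in cKO; 0.85, SE 0.210, adjusted p = 0.00534), Ndufaf8 (0.65, SE 0.228, adjusted p = 0.0397) and Ndufaf4 (0.33) were higher, with overlapping ranges. Ndufv2 (0.28) and Atp5c1 (0.22) were the others. The summed share did not separate the groups: 0.208% ± 0.009 in controls and 0.206% ± 0.013 in cKO oocytes, n = 8 each. Per 1000 ERCC counts it was 835 ± 97.8 and 528 ± 134. With this scaling 4.56% of all genes were higher and 40.1% lower (medians -0.67 for members and -0.52 for all genes), and of the complex I assembly factors 0 were higher and 2 lower.

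With counts summed per tag 0 members and 0 of all 20190 genes passed, while 3577 genes had an unadjusted p under 0.05. Ndufb5, Cox6a2 and Cox10 were lower in both GV assays, which have separate controls: 3 of the 6 poly(A) members and 3 of the 19 RiboMinus members. Over all genes tested in both, 681 were lower in both, or 49.5% of those lower in the poly(A) and 36.2% of those lower in the RiboMinus oocytes. Of the 19 members lower in adult RiboMinus GV oocytes, 12 were higher in poly(A) MII eggs (63.2% of the 19 and 19.4% of the 62), close to the 64.6% higher at MII among all 96 members tested in both. Over all genes 174 of 1883 were (9.24%), where 25.8% were higher at MII. The 12 were Ndufa4, Ndufa5, Ndufa7, Ndufb6, Ndufb8, Uqcr11, Uqcrh, Cox6a1, Cox6b2, Cox6c, Cox7a2 and Cox7c.

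**Figure D5:**
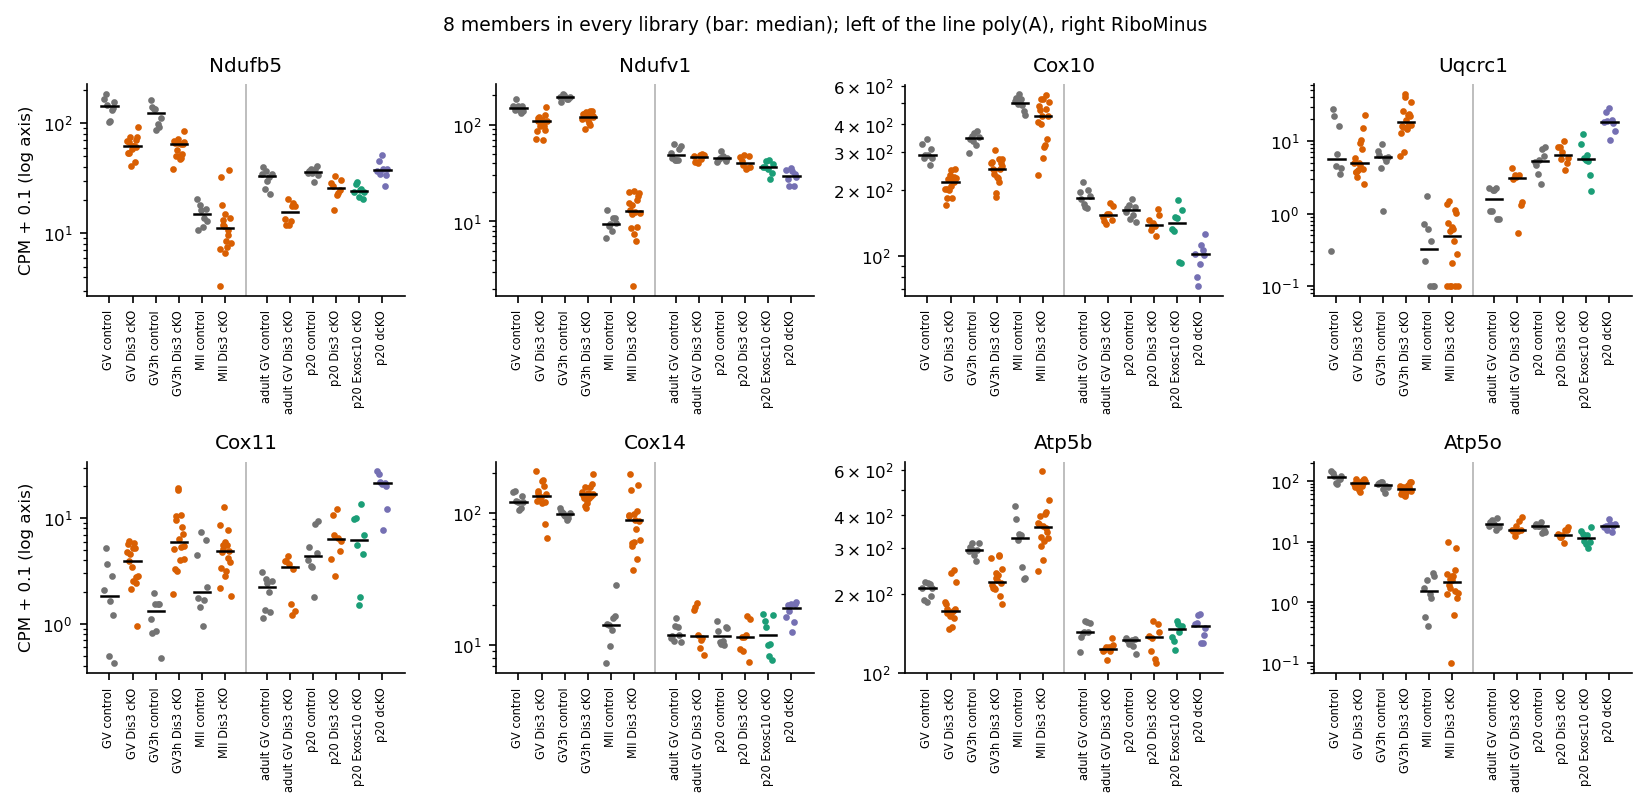
CPM + 0.1 on a log axis for 8 members, 1 point per library and a bar at the median, poly(A) groups on the left and RiboMinus groups on the right of each panel. Ndufb5 cKO oocytes at GV (40.4 to 92.6 CPM) lie below all GV controls (103 to 183 CPM), and Cox14 cKO eggs at MII lie above all MII controls.

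In growing p20 oocytes few OXPHOS genes passed in the single knockouts. Without Dis3, 0 of 98 members were higher and 2 lower, beside 3.61% and 3.76% of all genes: Cox6c, a complex IV subunit (16.8 to 24.9 CPM in controls, 7.68 to 16.2 CPM in cKO, no overlap; -0.79, SE 0.183, adjusted p = 0.00431), and Ndufb5 (-0.48, SE 0.126, adjusted p = 0.0116). Without Exosc10, 1 was higher (Ndufb3, 0.48, SE 0.153, adjusted p = 0.0498) and 3 lower, beside 3.95% and 3.5%, among them Ndufb5 (29.4 to 40.8 CPM and 20.2 to 29.2 CPM, no overlap; -0.56, SE 0.125, adjusted p = 0.00367) and Atp5o (-0.53, SE 0.153, adjusted p = 0.0269). Single gaps of this kind occurred in 1.56% and 1.01% of all genes. Both comparisons share the p20 controls. With counts summed per title tag 0 members passed in either, beside 0.631% higher and 0.736% lower of all genes without Dis3 and 0.536% and 0.296% without Exosc10, and with spike-in scaling 0 were higher and 10 lower without Dis3 (0.781% and 5.31% of all genes) and 0 passed without Exosc10 (1.35% and 0.944%). Without Dis3 5 members were lower by DESeq2 (4.46% of all genes), 4 with a replicate block (3.83%) and 4 with only these 2 groups in the model (5.61%), with 0 higher in each.

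The Dis3 effect at adult GV and at p20 did not differ past the threshold for any of 99 members, beside 5.34% and 3.98% of all genes more positive and more negative; 13 members had an unadjusted p under 0.05 in edgeR's test.

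In p20 oocytes without both ribonucleases 20 members were higher and 10 lower, beside 26.6% and 27.1% of all genes (medians 0.07 and -0.01). The summed share was 0.219% ± 0.025 in dcKO and 0.191% ± 0.003 in control oocytes (n = 8 each), and the dcKO oocytes split by title tag: the 4 of tag 1 lay at 0.233 to 0.251% and the 4 of tag 2 at 0.190 to 0.207%, beside 0.188 to 0.195% in controls. Counts under sums per tag are given with the lower members. In both directions members passed less often than all genes, so the higher ones are named singly and not as a group. Cox15, the last enzyme of haem A synthesis, ranged from 8.01 to 15.2 CPM in controls (median 11.2) and from 23.2 to 47.4 CPM in dcKO oocytes (median 32.3), without overlap (1.59, SE 0.186, adjusted p = 1.39e-08). Uqcrc1 ranged from 2.46 to 8.27 CPM (median 5.29) and from 10.3 to 28.5 CPM (median 18.5), also without overlap (1.82, SE 0.282, adjusted p = 1.85e-06). Cox11 ranged from 1.70 to 9.25 CPM and from 7.70 to 27.7 CPM (1.98, SE 0.381, adjusted p = 4.72e-05). Cox11 overlaps Tom1l1 and Cox15 overlaps Entpd7, whose reads could be shared.

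The other members higher without overlap were Atp5g3 (7.14 to 10.9 CPM in controls, 11.1 to 29.3 CPM in dcKO) and Uqcrfs1, the Rieske iron-sulphur protein of complex III (22.0 to 30.0 CPM and 31.3 to 46.9 CPM). With Cox15 and Uqcrc1 they made 4, beside 9.54% of all genes. Cox7c was also higher (1.34, SE 0.315, adjusted p = 0.00055).

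Among the 10 lower members, Cox10, the enzyme before Cox15 in haem A synthesis, ranged from 142 to 182 CPM in controls and from 72.5 to 126 CPM in dcKO oocytes (-0.69, SE 0.113, adjusted p = 4.13e-06). Ndufv1 ranged from 41.4 to 53.4 CPM and from 23.2 to 35.9 CPM (-0.61, SE 0.106, adjusted p = 1.01e-05), and Atp5e from 12.4 to 20.2 CPM and from 4.86 to 11.5 CPM (-0.70, SE 0.192, adjusted p = 0.00252). These 3, Sdha (-0.47) and Cox6a2, which was at 1.35 to 3.86 CPM in controls and at most 0.973 CPM in dcKO oocytes (-2.78), had no overlap, beside 10.1% of all genes in this direction. Ndufb10 was lower with overlap (-0.56, SE 0.206, adjusted p = 0.0208). With spike-in scaling 9 were higher and 9 lower (17.8% and 20.4% of all genes), and with counts summed per title tag 9 and 6 (16.1% and 15.7%). The granulosa and cumulus markers summed to 67.5 to 79.6 CPM in p20 controls and to 24.2 to 54.2 CPM in dcKO oocytes, without overlap, and their part in these results was not tested.

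The double knockout was also set against each single one. Against Dis3 cKO, 29 members were higher and 10 lower (26.0% and 25.5% of all genes), and against Exosc10 cKO 26 and 11 (24.2% and 25.0%); both use the same dcKO oocytes. With spike-in scaling the counts were 38 and 1 (27% and 9.92% of all genes) and 12 and 7 (14.6% and 17.0%). With counts summed per title tag they were 16 and 6 (14.3% and 14.1%) and 10 and 4 (13.1% and 13.4%). Uqcrc1 differed by 1.5 and 1.63, Cox11 by 1.56 and 1.58, Cox10 by -0.51 and -0.45 and Cox6a2 by -2.42 and -2.81 in the 2 comparisons. Ndufb5, at 26.8 to 51.7 CPM in dcKO oocytes and 29.4 to 40.8 CPM in controls, was lower in each single knockout and differed from control by 0.10 (SE 0.125, adjusted p = 0.536) in the double. It was higher in dcKO than in Dis3 cKO oocytes by 0.58 (adjusted p = 0.00025) and than in Exosc10 cKO oocytes by 0.65 (adjusted p = 6.02e-05).

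Control oocytes of the 2 ages differed in few members. Of 99 members 9 were higher and 3 lower in adult GV than in p20 oocytes, beside 8.69% and 10.4% of all genes. Uqcrc1 (0.730 to 2.17 CPM in adult, 2.46 to 8.27 CPM at p20; -1.85, SE 0.335, adjusted p = 7.69e-05), Cox11 (-1.34, SE 0.373, adjusted p = 0.00803) and Cox15 (-0.53, SE 0.177, adjusted p = 0.0264) were lower in adult oocytes. The core subunit Ndufs8 (0.78), Ndufaf2 (0.72) and Cox18 (0.48) led those that were higher. With counts summed per title tag none of these calls passed, with 0 members higher or lower beside 0.434% and 0.605% of all genes; Uqcrc1 was then at -1.81 (adjusted p = 0.0648). With spike-in scaling 0 members were higher and 97 lower in adult oocytes, beside 0.417% and 85.7% of all genes (medians -1.58 and -1.69); whether both ages received the same amount of spike-in is not given in the sources used here.

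Related genes that the symbol rule leaves out were read from lists. Of 45 tested assembly factors and electron carriers, 37 were lower and 1 higher in control maturation (82.2% and 2.22%, median -1.36), and 22 were higher and 4 lower in MII cKO eggs (48.9% and 8.89%, median 0.50), to be read against the shares of all genes given above for each comparison. Cycs, the mobile carrier cytochrome c, was higher without Dis3 in poly(A) GV oocytes (2.06, SE 0.390, adjusted p = 3.09e-05), GV3h oocytes (2.89), MII eggs (2.65) and adult RiboMinus oocytes (2.12). At p20 it did not pass in Dis3 cKO oocytes (0.79, SE 0.598, adjusted p = 0.507), was higher in Exosc10 cKO (2.33, SE 0.6, adjusted p = 0.0115; 2.08 and 0.0608 with spike-in scaling, 2.31 and 0.177 with counts summed per title tag) and dcKO oocytes (1.93), and differed by -0.41 (SE 0.564, adjusted p = 0.571) between dcKO and Exosc10 cKO. The list had 7 higher and 1 lower at GV (15.6% and 2.22%, beside 13.6% and 8.33% of all genes) and 12 and 5 at GV3h (26.7% and 11.1%, beside 22.9% and 15.7%). Of 43 tested in RiboMinus oocytes it had 15 and 3 in adult Dis3 cKO (34.9% and 6.98%, beside 15.7% and 12.4%) and 17 and 3 in dcKO oocytes (39.5% and 6.98%, beside 26.6% and 27.1%). In p20 Dis3 cKO it had 2 and 0 and in Exosc10 cKO 1 and 0. With spike-in scaling the counts were 2 and 3 at GV, 8 and 1 at GV3h, 28 and 1 at MII and 1 and 11 in adult Dis3 cKO. At p20 they were 0 and 1 in Dis3 cKO, 0 and 0 in Exosc10 cKO and 12 and 1 in dcKO. The balance therefore turned at GV, in adult RiboMinus oocytes and, on few genes, in p20 Dis3 cKO oocytes. With counts summed per title tag the counts were 0 and 0 in adult Dis3 cKO and in both p20 single knockouts and 10 and 0 in dcKO.

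The 12 tested regulators of mitochondrial gene expression behaved unevenly. In control maturation 5 were lower, among them Gabpa (-1.75) and Tfam, the mitochondrial DNA-packaging factor (-1.51), and 3 higher (22.7% of all genes were higher and 35.8% lower), while Nrf1 was at -0.10 and Yy1 at -0.05 and did not pass. With spike-in scaling all 12 were lower, beside 87.5% of all genes. Without Dis3, 0 were higher and 2 lower at GV, 4 and 3 at GV3h, 1 and 3 at MII and 1 and 1 in adult RiboMinus oocytes. All genes were at 13.6% and 8.33%, 22.9% and 15.7%, 27.3% and 14.8%, and 15.7% and 12.4%. With so few regulators no share is read from them. In p20 oocytes Nrf1 was lower without Exosc10 (-0.84, SE 0.066, adjusted p = 1.52e-11), a call kept with spike-in scaling (-0.86) and with counts summed per title tag (-0.84), and at -0.11 (adjusted p = 0.146) in dcKO oocytes. Without Dis3 it was at 0.37 (SE 0.066, adjusted p = 0.000137), which did not pass with spike-in scaling (0.06, adjusted p = 0.839) or with counts summed per title tag (0.38, adjusted p = 0.140). In p20 dcKO oocytes 5 regulators were higher and 1 lower, beside 26.6% and 27.1% of all genes. Gabpa was at 2.38 (SE 0.392, adjusted p = 4.86e-06) and Yy1 at 1.11 (SE 0.204, adjusted p = 2.40e-05).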

How the data were processed

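The series holds single mouse oocyte RNA libraries and CUT&Tag peak lists. The authors deposited raw counts per gene and ERCC spike-in for 71 poly(A) and 48 RiboMinus libraries, and 21 peak lists whose total signal and highest signal per peak are the authors' own values. The submitters' processing notes name cutadapt 2.5, FastQC 0.11.8, STAR 2.7.2a, SAMtools 1.9, HTSeq 0.9.1, R 3.5.1, DESeq2 1.24.0, SEACR and mm10, with no role or order; per the series' design text the CUT&Tag reads were first sampled to a common number without removing duplicates. The 3 IgG samples were not used.

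Counts were tested with edgeR 4.0.16 in R 4.3.3, with TMM scaling on gene counts and genes kept by filterByExpr. There was 1 model over all poly(A) groups and separate models for adult and p20 RiboMinus groups. Comparisons across these ages used a model over all RiboMinus groups. The quasi-likelihood test was used, with Benjamini-Hochberg adjustment over all genes tested (threshold 0.05). No row lacked a gene name. On simulated counts for the MII Dis3 comparison the same steps recovered 58 of 100 genes changed 2-fold and 87 of 100 changed 4-fold, among 17389 genes.

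Members and lists were chosen with earlier results of these data known. Members named in full were the up to 4 with the largest change in each direction of a comparison. They had an adjusted p under 0.05, the same sign with ERCC scaling and a mean of at least 5 CPM in the higher group. Their sign with that scaling is therefore no separate result. Other members named were chosen after their values were seen. The values of 1 member are not reported here. Replicate numbers did not pair the libraries. No 2 libraries were identical.

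Peaks were counted within 1000 bases of RefSeq starts (GRCm38.p6, the assembly behind mm10). Symbols were matched to gene IDs by RefSeq symbol (101) or synonym (3). Alternatives were ERCC scaling, RLE scaling, DESeq2 1.42.0, no filter on low counts, a replicate block, fewer libraries, counts summed per title tag, models of 2 groups alone, and members that overlap no other gene; protein length was replaced by locus length.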

Additional observations from a re-analysis of the deposited data

Results flagged for a closer look

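In 6 cases 1 of 8 libraries lay far from the other 7 for a named value; 75 groups of values were examined, and chance gives such a case in about 1 in 20. The highest summed share in p20 Exosc10 cKO oocytes was 0.236%, in the library with tag and number 2_4. MII control egg 8 had the highest levels of Ndufa7 (7.49 CPM), Cox14 (28.7 CPM) and Atp5e (6.96 CPM), and MII control egg 1 the highest of Cox18 (48.6 CPM). The p20 control 2_1 had the highest Atp5e level (20.2 CPM).

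The Dis3 effect of 8 named members differed between stages in edgeR's test of the difference. At MII it was more positive than at GV, on the log2 scale, by 1.01 for Ndufb5 (adjusted p = 0.0143), 1.36 for Cox6a2 (0.0302), 0.97 for Ndufv1 (0.00248), 2.49 for Cox14 (1.56e-10), 3.13 for Ndufa3 (1.31e-06), 2.66 for Ndufa7 (0.00803) and 2.52 for Atp5mpl (2.12e-07). At GV3h it was more positive than at GV by 2.50 for Uqcrc1 (0.0323), a call lost with a replicate block.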

How the results depend on the processing

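The number of members changed in each comparison was recounted under each alternative run for it. With ERCC scaling 11 members passed without Dis3 at GV (reported 6), 6 at GV3h (10), 2 for the GV3h against GV effect (1), 0 for GV3h against GV controls (3), 59 in adult RiboMinus (24), 10 in p20 Dis3 cKO (2), 0 in Exosc10 cKO (4), 18 in dcKO (30), 19 for dcKO against Exosc10 cKO (37) and 97 for adult against p20 controls (12), and Cox10 at MII turned to 0.12. Only the 2 groups compared in the model gave 16, 42 and 54 for GV, GV3h and GV3h controls and 4 for p20 Dis3 cKO. Title numbers 1 to 8 alone gave 11 at GV, where 13.6% of all genes were higher and 9.49% lower. They gave 6 for GV3h controls (1.77% and 2.33%). DESeq2 gave 2 for the GV3h against GV effect (1.94% and 1.2%) and 5 for p20 Dis3 cKO (5.04% and 4.46%). No filter on low counts gave 1 for Exosc10 cKO (1.61% and 1.46%). Counts summed per tag gave 0 in adult Dis3 cKO, p20 Dis3 cKO, Exosc10 cKO and adult against p20 controls, 15 in dcKO, 22 against Dis3 cKO and 14 against Exosc10 cKO. The 68 members that overlap no other gene, a smaller set in which fewer can pass, gave 3 at GV, 5 at GV3h and 1 for GV3h controls. They gave 13 in adult RiboMinus and 17 in dcKO.

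Leaving out MII cKO eggs 7, 11 or 15, or all 3 (chosen after the data were seen), gave 61 to 68 members at MII, 51 to 57 for the MII against GV effect, 6 to 8 at GV, 11 to 18 at GV3h, 1 to 2 for the GV3h against GV effect, 3 to 12 for GV3h controls, 91 to 92 in control and 89 to 90 in cKO maturation; without p20 Dis3 cKO library 1_4 the p20 counts were 2, 4, 30, 41 and 37. Replicate numbers marked no shared animal in the labels and did not pair the libraries (correlations of same-numbered libraries from -0.191 to 0.166), and with a replicate block 0 members passed for the GV3h against GV effect and 4 for p20 Dis3 cKO. Without the 5 members with most counts, the ratio of summed shares for MII against GV controls was 0.191. Of the named members' changes, 799 stayed on the same side of the threshold, 50 no longer passed, 13 came to pass and 1 changed sign. Signs were not followed where a change passed in neither fit, so the 799 need not all have kept direction. The members named in full were chosen with the same sign under spike-in scaling.

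With 2500 bases around starts, H3K27me3 lay at 1.98% (adult control), 4.76% (p20 control), 4.37% (adult cKO) and 9.92% (dcKO) of members. All protein-coding genes were at 28.2%, 31.1%, 32.7% and 38.3%. Pol II lay at 13.9% (adult control), 23.0% (p20 control) and 26.2% (adult cKO) of members, beside 7.49%, 16.8% and 18.3% of all genes. Above the median signal Pol II lay at 11.5% in p20 controls (6.7% of all genes) and at 8.33% in adult control and adult cKO lists alike (3.97% and 5.48%). H3K27me3 then lay at 0 in adult control and adult cKO lists (18.7% and 17.7%) and at 1.59% in p20 control and dcKO lists (22.0% and 17.5%). Leaving out each list in turn gave 0 to 0.595%, 1.19 to 2.38%, 0.595 to 1.19% and 2.38 to 5.36% for H3K27me3 and 7.74 to 9.52%, 16.1 to 17.3% and 7.74 to 16.7% for Pol II. Classes of protein length were not run. Single oocytes limit low members: fits with medians under 1 CPM rest on few reads. The causes of these shifts were not tested.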

Other observations

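Of 13 mitochondrially encoded partners of these complexes 7 were tested. As shares of gene counts all 7 were higher in MII than in GV controls (median log2 change 2.23) and in cKO maturation (1.25), beside 22.7% and 24.8% of all genes. At this step 86 and 79 nuclear members were lower. The rises of the 7 rest on the scaling. By ERCC spike-ins 3 were higher and 1 lower in controls (median 0.35), beside 0.334% and 87.5% of all genes (median -2.12). In cKO oocytes 0 were higher and 1 lower (median -0.08), beside 1.31% and 82.3% (median -1.51). All 7 were also higher without Dis3 in poly(A) GV oocytes (median 1.30), 4 at GV3h and 0 at MII (median 0.36), beside 13.6%, 22.9% and 27.3% of all genes. With spike-in scaling 7, 5 and 4 were higher at these stages, beside 7.27%, 17.5% and 37.6%. In adult RiboMinus oocytes all 7 were higher without Dis3 (1.27), among them mt-Nd5 (1.72) and mt-Co1 (0.85), beside 15.7% of all genes. In p20 Dis3 cKO oocytes 0 were (median -0.08), beside 3.61%. In the adult 5 passed with spike-in scaling, beside 4.56% of all genes higher. With counts summed per title tag 0 passed (median 1.19), as for all genes. The Dis3 effect was more positive in adult than in p20 oocytes for all 7 by edgeR's test of the difference (median 1.37), a test in which 0 of 99 nuclear members passed (13 at an unadjusted p under 0.05). Of all genes 5.34% were more positive in this test. With spike-in scaling 5 of the 7 passed it (1.88% of all genes) and with counts summed per title tag 0 (0.188%). In p20 Exosc10 cKO oocytes 0 of 7 passed and in dcKO oocytes 1 was higher, mt-Co1 (0.71), beside 3.95% and 26.6% of all genes higher. Whether these 7 transcripts were counted apart from their nuclear copies is not given in the sources used here.

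Within haem A synthesis, 2 consecutive enzymes moved in opposite directions in p20 dcKO oocytes: Cox10 was lower by -0.69 and Cox15 higher by 1.59, without overlap with controls in either case. Cox10 was lower in all 4 Dis3 comparisons other than that at p20, while for Cox15 none of these passed. The Cox10 changes were -0.47, -0.47, -0.26 and -0.24 for GV, GV3h, MII and adult RiboMinus. The last 2 Cox10 calls depend on the processing: at MII its change was 0.12 with spike-in scaling and -0.29 with an adjusted p of 0.0754 with only those 2 groups in edgeR's model, and in adult RiboMinus oocytes it was -0.29 with an adjusted p of 0.282 with counts summed per title tag.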
